A study of Mus musculus with 4 samples.

Results

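Cish and the suppressor of cytokine signaling genes Socs1 to Socs7 were examined in RNA sequencing libraries of activated lung group 2 innate lymphoid cells (ILC2s). Members were taken by gene symbol, and all 8 were found among the 22558 genes of the deposited count table and among the 11711 genes tested. Cish, the most abundant member, was 33.1% lower in the pair of libraries carrying the ICAM-1 KO label (called KO-labelled here) than in the WT pair. Socs5, one of the rarest members, was 2.03-fold higher, a call lost in 6 of 13 alternatives. The other 6 members did not pass the threshold of an adjusted p under 0.05, which 4.97% of all genes tested passed downwards and 8.8% upwards. Both KO-labelled libraries lay above both WT libraries for 5 of these 6, as they did for 28.3% of all genes tested.

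SOCS proteins are feedback inhibitors of cytokine receptors. A cytokine activates JAK kinases, which phosphorylate the receptor and STAT transcription factors, and STATs in turn switch on Cish and several Socs genes. Each SOCS protein has an SH2 domain, which binds phosphorylated tyrosines, and a SOCS box, which recruits a ubiquitin ligase through elongins and a cullin. CIS, the product of Cish, and SOCS2 bind to phosphorylated receptors, SOCS1 and SOCS3 also carry a region that inhibits JAK kinases, and the products of Socs4 to Socs7 are less well studied and act largely on receptor tyrosine kinases and insulin signaling. ILC2s depend on IL-7, TSLP and IL-2, whose receptors use STAT5, and on IL-33, whose receptor uses MyD88 and not JAK kinases.

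The libraries came from mice of the C57BL/6 background aged 6 weeks, either wildtype (WT) or of the genotype labelled ICAM-1 KO, and there were 2 libraries of each. All mice, controls included, had received 3 intranasal doses of 0.5 µg recombinant mouse IL-33, and ILC2s were sorted from the lungs on day 4 as lineage-negative CD45+ ST2+ CD127+ cells. There was no unchallenged group. Each library pooled cells of 4 mice, so the spread between libraries does not show the spread between animals. The study describes the knockout strain as constitutive, so ICAM-1 was not removed from ILC2s alone.

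Depth ran from 24796148 to 28782471 estimated counts per library. Icam1 had normalized counts of 85.2 and 83.3 in WT and of 97.6 and 110.0 in the KO-labelled libraries (log2 fold change 0.33, edgeR adjusted p = 0.0745), so its RNA was not lower where the labels place the knockout, and the direction of every difference given here rests on the labels. Gene-level counts do not show which exons the reads covered. The ILC2 marker genes were all detected, the most abundant being Arg1 and Id2. Marker genes of other lung cells, in 13 lists and without those also listed for ILC2s, were higher for 65 of the 110 genes tested and lower for 2. Among all genes tested 8.8% were higher and 4.97% were lower. Il2ra, left out as a marker of both ILC2s and regulatory T cells, was lower. In bulk RNA, more cells of a type and more RNA per cell cannot be told apart.

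The binding motif of STAT proteins, TTCNNNGAA, was looked for around the start of the members for which a sequence was at hand. Cish and several Socs genes are known to be induced through such sites. The motif reads the same on both strands. RefSeq windows on GRCm38.p6, each with 250 bases before and 50 bases after the start of the gene, were at hand for 4 members, Cish, Socs1, Socs3 and Socs4. Of these windows, that of Cish held 2 matches and that of Socs3 held 1, and no match was present in the windows of Socs1 and Socs4. Among 11276 windows of genes tested, 6.71% held at least 1 match and 0.372% held at least 2. The stretch of Cish is shown with both matches in capitals, on chr9:107296654-107296683 of the plus strand. The first match began at the RefSeq start of Cish, 107296659, and the second 11 bases after it, so neither lay before that start. Both lay before the start of transcript Cish-204. The sequences of Socs3 and Socs1 are the 250 bases before the start, on the minus strand at chr11:117969367-117969616 and chr16:10785537-10785786, shown because Socs3 was the second most abundant member and Socs1 the member that moved least.
Cish: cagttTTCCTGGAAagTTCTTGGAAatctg
Socs3: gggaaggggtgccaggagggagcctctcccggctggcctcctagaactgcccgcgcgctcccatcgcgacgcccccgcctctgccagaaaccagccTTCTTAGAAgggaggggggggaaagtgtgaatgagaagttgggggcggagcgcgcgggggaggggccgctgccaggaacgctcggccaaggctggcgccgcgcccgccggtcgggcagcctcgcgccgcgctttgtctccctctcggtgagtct
Socs1: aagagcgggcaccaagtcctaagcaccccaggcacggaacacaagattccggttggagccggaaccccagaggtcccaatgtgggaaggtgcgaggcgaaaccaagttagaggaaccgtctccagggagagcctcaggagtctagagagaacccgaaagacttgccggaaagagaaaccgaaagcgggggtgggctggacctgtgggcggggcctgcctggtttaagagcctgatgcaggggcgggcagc
The 2 matches of Cish were TTCCTGGAA and TTCTTGGAA, with 2 bases between them, and the second ended 31 bases before the start of Cish-204. The match of Socs3 was TTCTTAGAA. A match is a run of letters and not evidence of binding, and its absence from a window says nothing about STAT binding elsewhere at the gene.

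Levels of the members differed widely within each library. To compare genes, normalized counts (the authors' upper quartile scale) were divided by the length of all exons of the gene in kb. Cish stood first on this scale, at 68.9 and 70.7 per kb in the WT libraries and 44.5 and 47.2 per kb in the KO-labelled libraries. Socs3 came second, at 33.8 and 30.6 per kb in WT and 36.5 per kb in both KO-labelled libraries. Cish and Socs3 together therefore made up most of the RNA of these genes in each library.

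Socs1 had 8.93 and 7.84 per kb in WT and 7.35 and 8.81 per kb in the KO-labelled libraries. Socs2 had 6.1 and 6.01 per kb in WT and 6.78 and 7.46 per kb in the KO-labelled libraries. In WT the ranges of Socs1 and Socs2 did not overlap, whereas in the KO-labelled libraries they did. Within each library of either label Socs1 was above Socs2 on this scale. With the longest transcript in place of all exons Socs2 was above Socs1 in every library, so the order of these neighbours depends on the length used. Socs4, Socs5 and Socs6 lay between 1.01 and 2.64 per kb in all libraries, and Socs7 was lowest, between 0.349 and 0.569 per kb. Socs4 and Socs5 overlapped in the KO-labelled libraries, where Socs4 had 2.55 and 2.61 per kb and Socs5 had 2.64 and 2.58 per kb.

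**Figure D1:**
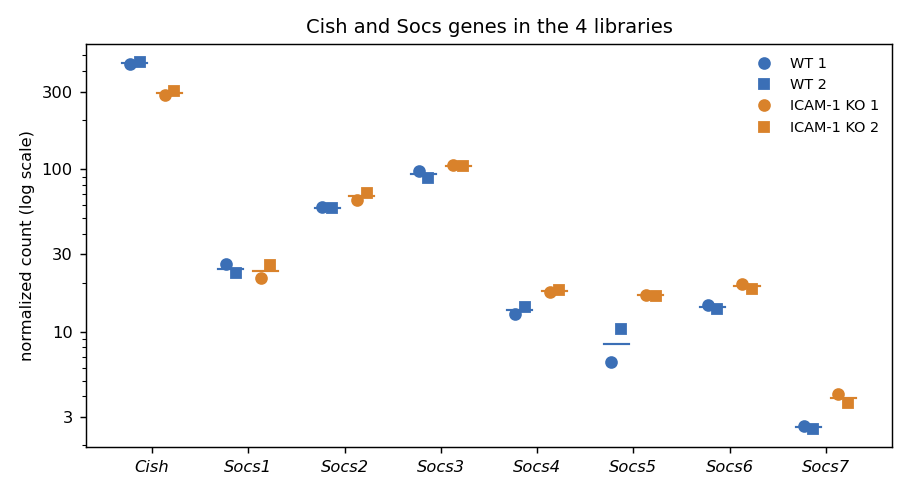
Normalized count of each member in each library on a log axis, with WT in blue, the KO-labelled libraries in orange, circles for replicate 1, squares for replicate 2 and a line at the mean of each pair. Cish lies near 448 in WT and near 294 in the KO-labelled libraries, Socs1 overlaps between the labels, and the WT libraries of Socs5 lie apart at 6.47 and 10.4.

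Cish encodes CIS, which dampens STAT5 signals of IL-2 family cytokines, and is placed by the files on mm10 chromosome 9, between 107296026 and 107302784, 86.3 Mb from Icam1. Its count was 13404 and 14336 in WT, against 8228 and 9511 in the KO-labelled libraries. Normalized, these were 443 and 454 in WT against 286 and 303, and both libraries of one label lay well below both of the other. The mean fell from 448 ± 8.09 (SD, n = 2 libraries) to 294 ± 12.3 (SD, n = 2 libraries). The log2 fold change was -0.58 (standard error 0.0838, 95% interval -0.77 to -0.39, adjusted p = 0.00381 by edgeR's quasi-likelihood test). The background for this call was 4.97%, the share of all genes tested that were lower with an adjusted p under 0.05.

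The difference between the labels for Cish was far larger than the distance between replicates, which was 1.03-fold in WT and 1.06-fold in the KO-labelled libraries. Its size stayed under 2-fold, the second threshold of the study, which 0.538% of all genes tested passed downwards and 4.94% upwards, and the interval in linear terms ran from 0.59 to 0.76 of the WT level. Among the 582 genes called lower, Cish ranked 188 by log2 fold change. Of the 351 genes at least as abundant as Cish, 74 were lower and 20 were higher, and 10 of them, Cish included, fell by at least as much on the log2 scale. Il5, Calca, Cxcl2 and Arg1 were among these 10, a selection made after the values were seen. Leaving out any 1 library kept the log2 fold change of Cish between -0.63 and -0.53.

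Short genes on the other strand, Gm17040 and Gm17041, share exon bases with Cish, 261 and 479 of them. Gm17040 had 14 and 9 counts in WT and 11 and 8 in the KO-labelled libraries. Gm17041 had 114 and 10 counts in WT and 34 and 16 in the KO-labelled libraries. Both were too rare to be tested, and their counts were small beside those of Cish. Whether the counting used strand is not given in the sources used here, so reads of these genes and of Cish cannot be told apart.

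Among the 17 ILC2 marker genes, 6 were lower, 1 was higher and 10 were not called, with a median log2 fold change of -0.14, and their summed normalized count was 9086 and 9855 in WT and 7420 and 7566 in the KO-labelled libraries. Among all genes tested 4.97% were lower and 8.8% were higher. The markers that fell were Il13, Il5, Calca, Arg1, Id2 and Il2ra, with log2 fold changes of -1.45, -0.76, -0.72, -0.65, -0.56 and -0.51. Among the 10 not called, Gata3, Rora, Icos and Il7r had -0.14, 0.08, 0.07 and 0.28. The sum and the scaling below use all 17 markers, those that fell included, so neither measures ILC2 content alone. Scaling the libraries on the markers, a choice made after seeing the data, gave Cish a log2 fold change of -0.33 (adjusted p = 0.0248, edgeR) and moved the median of all genes from 0.01 to 0.26. The part of ILC2 content in the difference of Cish was not tested.

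Socs2, whose product acts on growth hormone and other STAT5 receptors, did not follow Cish. Its normalized count was 58.2 and 57.3 in WT and 64.6 and 71.1 in the KO-labelled libraries. The labels did not overlap, with the KO-labelled libraries higher, yet the difference did not pass the threshold. The log2 fold change was 0.26 (95% interval -0.00089 to 0.52, adjusted p = 0.166, edgeR). The ratio of Cish to Socs2 per kb was 11.3 and 11.8 in WT and 6.56 and 6.33 in the KO-labelled libraries, so both members, known as STAT5 targets, stood in another proportion under the 2 labels.

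Socs1 and Socs3 encode the members that block JAK kinases directly, and Socs1 is best known for restraining interferon signals. Socs1, on chromosome 16 from 10782240 to 10785536, had normalized counts of 26 and 22.8 in WT and of 21.4 and 25.6 in the KO-labelled libraries. It was the single member whose labels overlapped. Its log2 fold change was -0.02 (95% interval -0.43 to 0.39, adjusted p = 0.947, edgeR), which in linear terms runs from 0.74 to 1.31 of the WT level. Without WT replicate 1 or without ICAM-1 KO replicate 1 its sign turned, to 0.07 and 0.11.

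Socs3 restrains IL-6 family and related STAT3 signals and lies on chromosome 11 from 117966079 to 117970047. Its normalized count was 97.8 and 88.5 in WT and 106 and 105 in the KO-labelled libraries. The KO-labelled libraries lay above both WT libraries by a margin close to the distance between the WT libraries. The log2 fold change was 0.21 (95% interval -0.024 to 0.44, adjusted p = 0.209, edgeR). The upper end of the interval corresponds to 1.35-fold. Per kb, the ratio of Cish to Socs3 was 2.04 and 2.31 in WT and 1.22 and 1.3 in the KO-labelled libraries.

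**Figure D2:**
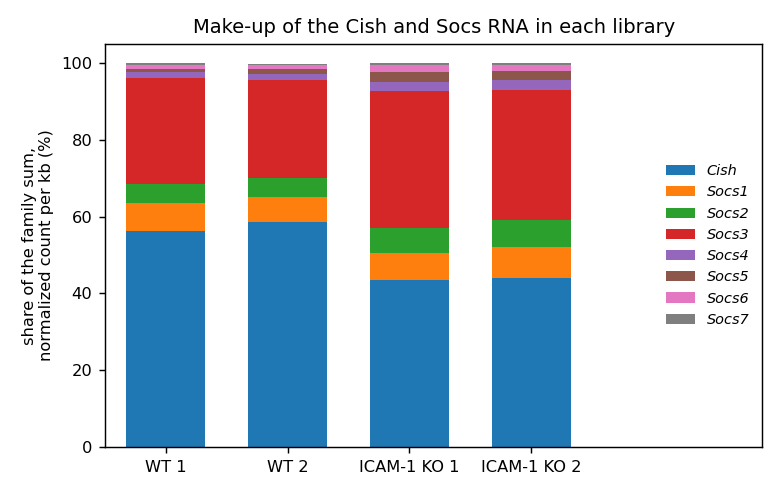
Share of each member in the summed normalized count per kb of the 8 genes, in percent, stacked to the whole for each library. Cish takes 56.3% and 58.7% in WT and 43.4% and 44% in the KO-labelled libraries, and Socs3 takes the next largest share in every library.

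The make-up of the family differed with the label. Cish made up 56.3% and 58.7% of the family sum per kb in WT and 43.4% and 44% in the KO-labelled libraries, whereas Socs3 made up 27.7% and 25.4% in WT and 35.6% and 34% there. Shares add up to the whole, so a lower Cish by itself raises the share of each other member. Socs3 itself was not called (log2 fold change 0.21, edgeR adjusted p = 0.209). The sum of the 8 genes was 122 and 120 per kb in WT and 103 and 107 per kb in the KO-labelled libraries. Without Cish the order was the other way, 53.4 and 49.7 per kb in WT and 58.1 and 60 per kb in the KO-labelled libraries. With the longest transcript of each gene as its length, the mean share of Cish was 59.5% in WT and 45.4% in the KO-labelled libraries. With 2 libraries a label an exact permutation test of a share cannot reach the threshold, and none was run.

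Socs5 inhibits epidermal growth factor receptor and IL-4 receptor signals and lies on chromosome 17 from 87107679 to 87137839. Its count was 195 and 326 in WT, against 487 and 519 in the KO-labelled libraries. Normalized, these were 6.47 and 10.4 in WT against 16.9 and 16.6, and the labels did not overlap. The mean rose from 8.41 ± 2.75 (SD, n = 2 libraries) to 16.8 ± 0.263 (SD, n = 2 libraries), with a log2 fold change of 1.02 (standard error 0.266, 95% interval 0.42 to 1.62, adjusted p = 0.0373, edgeR). Of all genes tested, 8.8% were higher with an adjusted p under 0.05, a background that falls to 4.94% when at least 2-fold is also required.

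The WT libraries differed from each other 1.6-fold in Socs5, the widest distance between replicates of any member. Without WT replicate 1 its log2 fold change was 0.72 and its adjusted p was 0.146, by edgeR. It was 1.4 without WT replicate 2, with an adjusted p of 0.0371. Leaving out ICAM-1 KO replicate 1 or 2 gave 1.01 and 1.02, with adjusted p of 0.0625 and 0.0595, so the call was lost without any 1 of these 3 libraries. Over all alternatives the adjusted p of Socs5 ran from 0.00795 to 0.146 and exceeded 0.05 in 6 of 13. Among the 3625 genes within 2-fold of its level, F11r, which encodes a junctional adhesion molecule, had the most similar pattern, at a distance of 0.0548 on the log2 scale over the 4 libraries, followed by Cyp4f18 and Rnf144a.

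The sort kept CD45+ cells without lineage markers, a gate meant to remove structural cells and other leukocytes. Marker lists of such cells differed between the labels, to unequal degrees. Among all genes tested 8.8% were higher and 4.97% were lower. All 12 endothelial markers were higher, and their summed normalized count was 290 and 278 in WT and 657 and 655 in the KO-labelled libraries. Of the 12 alveolar markers 10 were tested and 9 were higher, with sums of 142 and 129 against 621 and 1132. Macrophage and monocyte markers were higher for 9 of 12 tested, T cell markers for 7 of 12 and B cell and plasma cell markers for 6 of 10. The same held for 5 of 7 dendritic cell, 4 of 6 neutrophil, 4 of 8 regulatory T cell and 3 of 9 basophil and mast cell markers, for 1 of 6 in the NK cell and in the airway lists, and the 6 fibroblast and muscle markers were not called. Of the regulatory T cell markers 1 was lower, Il2ra, which is also an ILC2 marker. Eosinophil markers were split, with 4 of 7 higher and 2 lower, Epx and Prg2. No marker of these lists was at 0 in every library, and their part in the difference of Socs5 was not tested.

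Socs4, Socs6 and Socs7, whose products are linked to receptor tyrosine kinases and insulin signaling, were each higher in both KO-labelled libraries, and none passed the threshold. Socs4 had normalized counts of 12.9 and 14.1 in WT and 17.6 and 18 in the KO-labelled libraries (log2 fold change 0.42, 95% interval -0.037 to 0.88, edgeR adjusted p = 0.199). Socs6 had 14.6 and 13.8 in WT and 19.5 and 18.4 in the KO-labelled libraries (log2 fold change 0.44, 95% interval -0.0007 to 0.89, edgeR adjusted p = 0.166). Socs7 was the rarest, at 79 counts in each WT library and 118 and 114 counts in the KO-labelled libraries (log2 fold change 0.62, 95% interval -0.25 to 1.49, edgeR adjusted p = 0.317). The interval of Socs7 ran from 0.84 to 2.82 of the WT level, the widest of the members, so these counts leave changes of either sign within it.

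**Figure D3:**
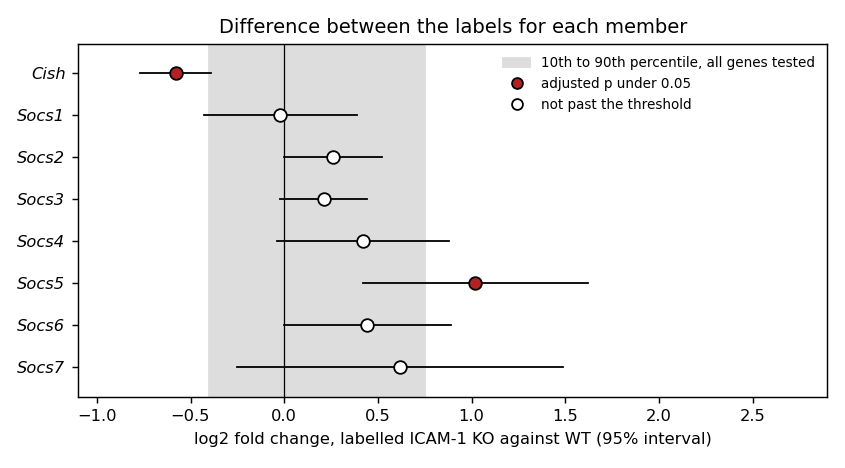
Log2 fold change of each member between the KO-labelled libraries and WT with its 95% interval, filled where the adjusted p is under 0.05, over a band from the 10th to the 90th percentile of all genes tested (-0.4 to 0.75). Cish lies below the band and Socs5 above it.

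In all, 1 member was lower, 1 was higher and 6 were not called, where 4.97% of all genes tested were lower, 8.8% were higher and 13.8% were either. The higher call, that of Socs5, was lost in 6 of 13 alternatives. Of the 8 members, 6 had both KO-labelled libraries above both WT libraries and 1 had both below, where 28.3% and 31.3% of all genes tested did. A positive log2 fold change was found for 6 of the 8 members and for 51.2% of all genes tested. The median log2 fold change of the members was 0.34, against 0.01 for all genes tested. These counts and medians describe a small set and were given no test of their own.

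The genes with the most similar pattern to Cish, among 773 genes within 2-fold of its level, were Dut, which encodes dUTPase, Nutf2, a nuclear transport factor, and Cycs, cytochrome c. Their distances from Cish were 0.0555, 0.0895 and 0.09 on the log2 scale over the 4 libraries, and their log2 fold changes were -0.58, -0.53 and -0.53. None of the 3 belongs to the lists of the pathway used here. Likeness over 4 libraries says little beyond a shared difference between the labels.

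The ligands whose receptors signal through JAK kinases were mostly lower. Of the 22 listed, 10 were tested, and 6 were lower and 1 was higher with an adjusted p under 0.05. Among all genes 4.97% were lower and 8.8% higher. The median log2 fold change of the ligands was -0.66, against 0.01 for all genes tested. Il5 and Il13 also stand in the list of ILC2 markers, whose part in the ligand values was not tested. Il9, Il13 and Lif had log2 fold changes of -1.58, -1.45 and -0.81, and Il10 was the higher one, at 1.31, a call lost in 9 of 13 alternatives. The lower ligands numbered 2 without a filter on low counts. Il5 and Csf2, the most abundant, had log2 fold changes of -0.76 and -0.57. The fall of Cish, at -0.58, lay close to that of Csf2.

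Of the 36 receptor chains listed, 30 were tested, 14 were higher, 3 were lower and 13 were not called, with a median log2 fold change of 0.42, against 8.8% higher and 4.97% lower among all genes. The higher receptors numbered 7 without WT replicate 1, 9 without WT replicate 2, 9 without ICAM-1 KO replicate 2 and 6 without a filter on low counts. Il5ra, Csf3r and Csf1r, the last a receptor tyrosine kinase, also stand in the lists of eosinophil, neutrophil and macrophage markers, and 65 of 110 markers of other cells were higher, whose part in the receptor values was not tested. The largest increases were in rare chains, Ghr, Il6ra and Il5ra, each under 12 normalized counts in every library, and in Il21r, which rose from 19.2 and 25.9 to 68.7 and 81.4 (log2 fold change 1.76, edgeR adjusted p = 0.000674). Il2rg, the common gamma chain through which IL-2, IL-7 and IL-9 signal to STAT5, had 1132 and 1072 in WT and 975 and 1084 in the KO-labelled libraries (log2 fold change -0.07, adjusted p = 0.646). Il2ra, the high-affinity chain of the IL-2 receptor and itself a STAT5 target, had 699 and 836 in WT and fell to 536 and 524 (adjusted p = 0.0133), a log2 fold change of -0.51 with a standard error of 0.0992. Il2ra and Cish thus fell by similar amounts on the log2 scale. Il2ra also stands in the lists of ILC2 and of regulatory T cell markers, and a shared cause with Cish was not tested.

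JAK and STAT genes encode the kinases and transcription factors that SOCS proteins restrain. All 11 were tested, 1 was higher and 10 were not called, where 8.8% of all genes tested were higher and 4.97% were lower. The higher one, Jak2, had 295 and 315 in WT and 381 and 366 in the KO-labelled libraries (log2 fold change 0.32, adjusted p = 0.0365). That call was lost without a filter, with filterByExpr and without WT replicate 1, WT replicate 2 or ICAM-1 KO replicate 1. Jak1 and Stat3, the most abundant, had log2 fold changes of -0.08 and -0.03. Stat2, also named after its value was seen, had 21.6 and 15.3 in WT and 33 and 23.1 in the KO-labelled libraries (log2 fold change 0.63, adjusted p = 0.107). Stat5a and Stat5b, named after their values were seen, had log2 fold changes of -0.32 (95% interval -0.57 to -0.072, adjusted p = 0.0859) and 0.12 (95% interval -0.18 to 0.42, adjusted p = 0.6). No count of JAK or STAT RNA speaks to the phosphorylation of these proteins.

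Other genes known to be induced through STATs included both higher and lower ones. Of 20 STAT5 targets outside the family, all tested, 5 were higher and 3 were lower, with a median log2 fold change of 0.05, against 8.8% higher and 4.97% lower among all genes. The higher targets numbered 2 without WT replicate 1, 3 without WT replicate 2 and 1 without a filter, and the lower ones 0 without WT replicate 2 and 1 without a filter. Lif fell from 95.9 and 110.0 to 66 and 49.2, whereas Tnfrsf4, Bcl2 and Xbp1 were higher with log2 fold changes of 0.95, 0.66 and 0.64. STAT3 targets other than Socs3 had 3 higher and 3 lower of 13, with Bcl3 and Batf lower (-0.55 and -0.46) and Il21r and Prdm1 higher (1.76 and 0.83). The lower ones numbered 0 without WT replicate 1 or WT replicate 2 and 1 without ICAM-1 KO replicate 1, and the higher ones 1 without WT replicate 1. STAT6 targets had 2 higher, Chil3 and Il4ra, and 2 lower, Arg1 and Ccr8, of 8 tested, with 1 lower and 1 higher without WT replicate 1 and 1 higher without ICAM-1 KO replicate 2. Chil3 also stands in the list of macrophage markers, which were higher. The part of other cells in the values of all these targets was not tested.

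**Figure D4:**
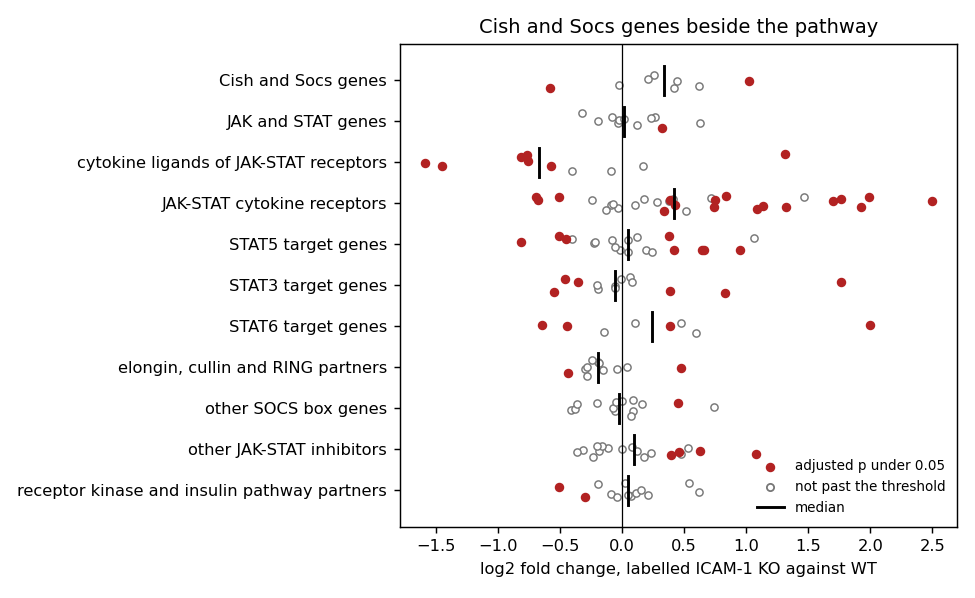
Log2 fold change between the KO-labelled libraries and WT of each gene tested in the lists of the pathway described here, with 1 point per gene, red where the adjusted p is under 0.05, and a bar at each median. Ligands have the lowest median (-0.66) and receptors the highest (0.42), and Cish and Socs5 are the red points of the top row.

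The SOCS box works through a ubiquitin ligase. The list held 11 genes of elongins, cullins, RING subunits and activators, not all of them parts of that ligase. Rbx1, the RING subunit of several cullin ligases, was lower (log2 fold change -0.43, adjusted p = 0.0152, edgeR). Arih2, which acts with cullin 5, was higher (0.47, adjusted p = 0.0301, edgeR). The other 9 were not called, among them Cul5 (-0.195, adjusted p = 0.374) and Rnf7 (-0.182, adjusted p = 0.305), both by edgeR. Of the 11, 9 had a negative log2 fold change, and the median was -0.2. Among all genes tested 51.2% had a positive log2 fold change, 8.8% were called higher and 4.97% lower. This list had 3 lower genes by DESeq2 and 0 without WT replicate 1, WT replicate 2 or ICAM-1 KO replicate 1, and 0 higher without WT replicate 1, WT replicate 2 or ICAM-1 KO replicate 2. Among other genes with a SOCS box, 29 listed and 14 tested, Wsb1 was the 1 that passed the threshold, a call lost without WT replicate 1, WT replicate 2 or ICAM-1 KO replicate 2, rising from 85.8 and 94.4 to 116 and 125 (log2 fold change 0.45, adjusted p = 0.0244, edgeR).

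Of 18 other inhibitors of JAK-STAT signaling, 4 were higher and 14 were not called, against 8.8% higher among all genes. The higher ones numbered 0 without WT replicate 1 or WT replicate 2, 2 and 1 without ICAM-1 KO replicate 1 and 2, and 1 without a filter. Ptprc, the phosphatase CD45 and the most abundant of them, had 706 and 701 in WT and 920 and 896 in the KO-labelled libraries (log2 fold change 0.39, adjusted p = 0.0138). Dusp3, a phosphatase, Sh2b3, an adaptor that restrains JAK2, and Cblb, a ubiquitin ligase, had log2 fold changes of 1.08, 0.63 and 0.46. Markers of other cells were higher for 65 of 110 genes, and their part in the inhibitor values was not tested. Ptpn1 had 144 and 163 in WT and 132 and 133 in the KO-labelled libraries (log2 fold change -0.19, adjusted p = 0.238). Of 16 partners of the family outside the pathway, 13 were tested, and Irs2 and Trp53 were lower (-0.3 and -0.5). Among all genes 4.97% were lower. Fewer partners were lower when any 1 library was left out. Without a filter on low counts 0 were lower, and under scaling on ILC2 markers 0 were lower and 2 higher.

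**Figure D5:**
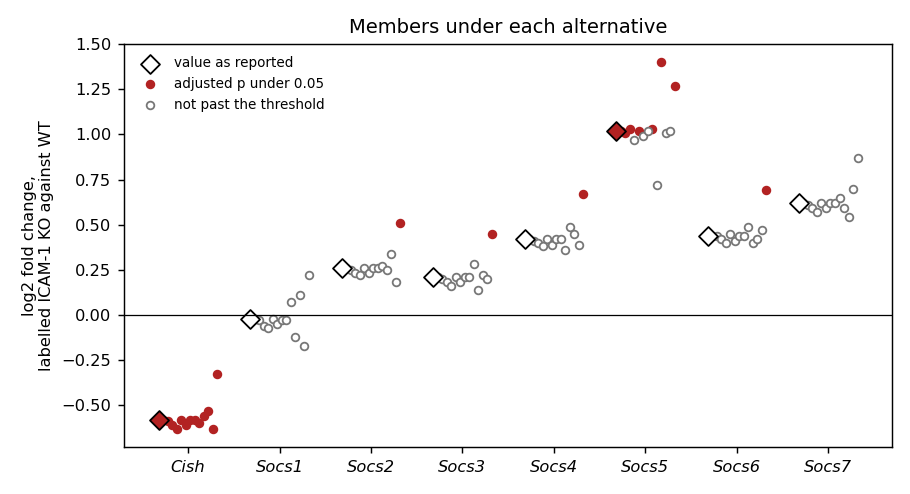
Log2 fold change of each member as reported (diamond) and under each of 13 alternatives (circles), red where the adjusted p is under 0.05. Cish stays between -0.63 and -0.33 and is red throughout, Socs5 ranges from 0.72 to 1.4, and Socs1 falls on both sides of 0.

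Cish kept its direction and its call under all 13 alternatives, with adjusted p between 4.4e-09 and 0.0285. Socs2, Socs3, Socs4 and Socs6 passed the threshold only under scaling on ILC2 markers, with adjusted p of 0.02, 0.0269, 0.0482 and 0.0446, while Socs7 passed it under none.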

How the data were processed

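Per the study's methods, the authors reverse transcribed 10 ng of RNA per library (SMARTer chemistry), sequenced on a NextSeq instrument, aligned with STAR (mm10) and quantified GENCODE M20 genes in Partek. The deposited table of expected counts (E/M estimates, not normalized) holds 22558 genes. A second deposited table gives normalized signal for 18324 genes, found here to be the count plus 1 times 1 upper quartile factor per library, here called the normalized count. Groups and replicate numbers were read from the labels. Expected counts were rounded and fitted in edgeR 4.0.16 (R 4.3.3; quasi-likelihood F test, newer form, upper quartile factors, no covariate) on the 11711 genes whose normalized counts averaged 1 or more and summed to 10 or more, the study's limits. P-values were adjusted over all of these genes by the Benjamini-Hochberg method, calls were made under 0.05, and intervals are 95% intervals of the fit. The test moves the variance of each gene toward a trend over all genes tested. P-values thus rest on the spread between 2 pooled libraries per label and on that trend. Depth (24796148 to 28782471 counts) covers counting error only.

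Exon lengths and overlaps came from GENCODE M21, matched by symbol and coordinates for 21881 genes, and start windows from RefSeq on GRCm38.p6. Likeness is the Euclidean distance of centred log2 normalized counts. Named were all 8 members and, per list, up to 4 called genes of largest change and the 2 most abundant. Of the genes named by these rules some are given as counts only. The result of 1 list of target genes is not reported here. Members and lists were chosen with earlier results of these data known. Alternatives were TMM factors, DESeq2 1.42.0, limma 3.58.1, 3 other filters, the older form of the test, a replicate block, each library left out in turn and, added after seeing the data, scaling on ILC2 markers.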

Additional observations from a re-analysis of the deposited data

How the results depend on the processing

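Members called higher numbered 1 as reported, 0 without a filter on low counts, under filterByExpr and under the older form of the edgeR test, 0 to 1 when single libraries were left out, and 5 with scaling on ILC2 markers. Members called lower numbered 1 throughout, and 0 with at least 2-fold required. Socs5 was the member lost, with log2 fold changes of 0.97, 0.99 and 1.02 and adjusted p of 0.105, 0.0523 and 0.0533 under these 3 choices, and the cause was not tested, although without a filter 22158 genes were tested. Socs1 turned in sign to 0.22 under scaling on ILC2 markers and ran from -0.17 to 0.11 when single libraries were left out. In such fits the lone library of a label is assumed to vary like the pair of the other. The same replicate numbers stand in both labels, but deviations of same-numbered libraries correlated at -0.0663 and nothing ties the animals, so the numbers do not pair them. With a replicate block the members called higher were 1 and those called lower 1, and Cish had an adjusted p of 0.00155. Without a filter 334 genes were called higher and 201 lower, against 1030 and 582, and DESeq2 called 930 lower. With single libraries left out the higher genes numbered 479 to 948 and the lower ones 158 to 388, fewest without the WT libraries (479 and 208 without replicate 1, 523 and 158 without replicate 2), and 357 were lower without ICAM-1 KO replicate 1. Scaling on ILC2 markers gave 2428 higher and 105 lower, so the shares set beside Cish and Socs5 hold for the reported setting. Under this scaling 4 JAK and STAT genes, 19 receptors, 8 STAT5 targets and 7 other inhibitors were higher. Ligands called lower numbered 4, STAT5 targets 1, STAT6 targets 1, STAT3 targets 0 and ligase partners 0. The 79 counts of Socs7 in WT limit what can be seen for it.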
